A study of Danio rerio with 9 samples.

Results

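In zebrafish embryos followed over 9 stages, 88 of 16176 probe IDs (0.544%) gave a stage signal at or below the level of empty spots at the first 6 stages, a signal above it at the last 3, and a late mean ratio at least 2-fold above that of the 3 stages before. The stages were 64-cell, high, sphere, 30% epiboly, 50% epiboly and shield, followed by 75% epiboly, 90% epiboly and tailbud. Embryos came from 1 clutch of outbred wild-type stocks kept at 28.5 °C, and 30 to 50 of them, uninjected, were pooled for each stage. No stage had a replicate, a mutant or a treatment. RNA of each stage was labelled with Cy5 (red) and hybridised to 1 spotted oligonucleotide array together with a Cy3-labelled (green) pool of equal amounts of RNA from all 9 stages. Whole embryos were used, so more cells of a type and more RNA per cell cannot be told apart.

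The 88 transcripts were chosen from these same arrays, and the values below describe them without a test. A probe counted as on at a stage when its median Cy5 spot intensity was above the blank level, meaning the 95th percentile of that array's 262 blank spots. The log ratio was log2 of background-subtracted Cy5 over background-subtracted Cy3, with the median of the array set to 0. A member had to be off at the 6 stages up to shield and on at the 3 later ones. Its mean log ratio at the 3 later stages also had to exceed its mean at 30% epiboly, 50% epiboly and shield by at least 1, which is 2-fold. The detection condition alone was met by 310 probes, and 222 of them missed the size condition. Just inside the size limit the rise was 1.00, and just outside it was 0.99.

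During epiboly the blastoderm spreads over the yolk cell, and the percentage gives how far the margin has moved toward the vegetal pole. Embryos up to the midblastula live on RNA and protein laid down in the egg, and the embryo's own genes are then switched on in waves. Between shield and tailbud the germ layers are set apart, the axis extends, and the neural plate, notochord and somite precursors take shape. Transcripts first detected in this interval in zebrafish are known to include regulators and structural genes of these tissues. The IDs of the spotted oligonucleotides stand without gene names in the files, and 0 of the 88 IDs matched an entry in the RefSeq and Ensembl name tables used here. No member could therefore be given a gene, a role or a sequence, and germ layer and cell type marker lists could not be applied.

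Array brightness changed at the same step as the one that defined these transcripts. From the shield to the 75% epiboly array the median Cy5 intensity went from 325 to 979.8, a ratio of 3.01, while the Cy5 blank level went from 407.5 to 624, a ratio of 1.53. In the pool channel, where the RNA was the same, the median went from 548 to 1188. The number of probes on was lowest at shield, 6531, and the 3 later arrays had 10890, 10192 and 11273. At the 5 stages before shield it lay between 8619 and 10300. The part of array brightness in the membership was not tested. When the same number of probes, 6531, was called on at every stage by the rank of their Cy5 signal, an alternative chosen after the data were seen, 62 probes met the conditions and 12 of them were among the 88.

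The stage signal of the 88 transcripts stayed well under the blank level up to shield and rose through all 3 later stages. As a multiple of the blank level, the 64-cell, high and sphere arrays gave medians over members of 0.64, 0.54 and 0.55. The 30% epiboly, 50% epiboly and shield arrays gave 0.59, 0.73 and 0.55. At 75% epiboly the median was 1.36, at 90% epiboly it was 2.04, and by tailbud it had reached 3.0. The sides of the blank level were fixed by the choice of members, and the size condition favours a wide gap. The 222 probes that missed only that condition had a median of 0.62 at shield and then 1.29, 1.24 and 1.56. At shield the highest member stood at 0.83 of the blank level, whereas at 50% epiboly 16 members stood above 0.9 of it. At 75% epiboly the multiples ran from 1.00 to 3.69, and 48 of the 88 were under 1.5, of which 13 were under 1.1. At tailbud 76 members were above 2 times the blank level, against 14 at 75% epiboly. For many members 75% epiboly was thus the stage at which a faint signal first cleared the blank level, and it was a clear signal only later.

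**Figure D1:**
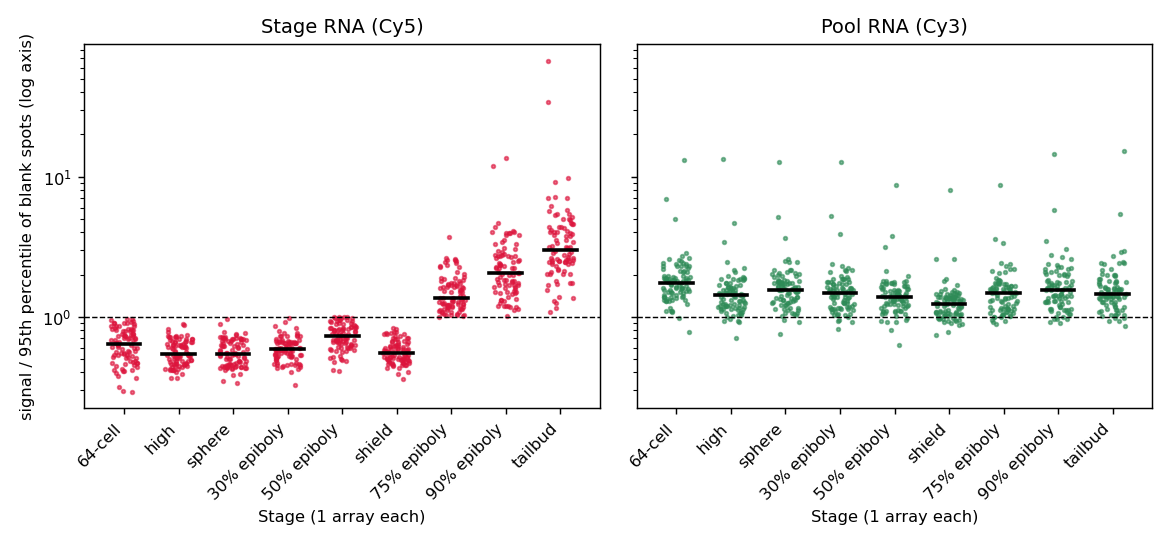
Spot intensity of the 88 members at each stage as a multiple of the 95th percentile of blank spots, on a log axis, for stage RNA (left) and pool RNA (right). Points are members, bars are medians and the dashed line is the blank level. The Cy5 median goes from 0.55 at shield to 3.0 at tailbud, and the Cy3 median stays between 1.23 and 1.75.

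The pool channel shows whether these probes gave a Cy3 signal on the arrays where the stage RNA gave none above blanks. It cannot show that they could have been detected in Cy5, because the channels differed in brightness. On the shield array 12195 of all probes exceeded blanks in Cy3 and 6531 in Cy5. In Cy3, 73 of the 88 exceeded the Cy3 blank level on the shield array, beside 75.4% of all probes. On the other 8 arrays the number lay between 81 and 86, beside 74.0% to 80.2% of all probes. On all 9 arrays 71 members exceeded it, beside 67.6% of all probes, and 1 member exceeded it on no array. Against the stricter 99th percentile of Cy3 blanks the number was 46 on the shield array and lay between 57 and 80 on the others. The pool level of the members was middling, with a median at percentile 42.5 of all probes and a range from percentile 10.9 to 94.5.

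Rank within an array is unchanged when all its signals are scaled by the same factor. These ranks use Cy5 signals without background subtraction, and the part of background in them was not tested. By Cy5 intensity the median member stood at percentile 22.6 of all probes on the 64-cell array, 19.9 on high and 20.0 on sphere. It moved to 25.3 by 30% epiboly, 28.7 by 50% epiboly and 31.5 by shield. The 3 later stages gave 44.6, 58.5 and 64.3. These ranks come from the Cy5 signals that chose the members, so the climb after shield is set in part by that choice and is given as a description. In the pool channel the median percentile lay between 40.6 and 44.5 on all 9 arrays. For the 222 probes that met the detection condition without the rise, the median Cy5 percentile was 37.8 at shield, 42.1 at 75% epiboly and 44.5 at tailbud.

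The log ratios followed the same order. For 64-cell, high and sphere the median over members was -1.24, -1.25 and -1.37. For 30% epiboly, 50% epiboly and shield it was -0.97, -0.58 and -0.59. The 3 later stages had 0.27, 0.81 and 1.29. Between single arrays these are differences without an error of their own, and the ratios up to shield rest on Cy5 signals that did not exceed blanks. The rise of the late mean over the mean of 30% epiboly to shield, which chose the members, had a median of 1.44, quartiles of 1.24 and 1.79 and a maximum of 3.71. Among all probes 3.31% rose as much, a figure given for scale alone because the rule used this contrast. Background correction with normexp and loess normalization gave the members a median rise of 1.13, and 60 of the 88 still met the size condition.

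**Figure D2:**
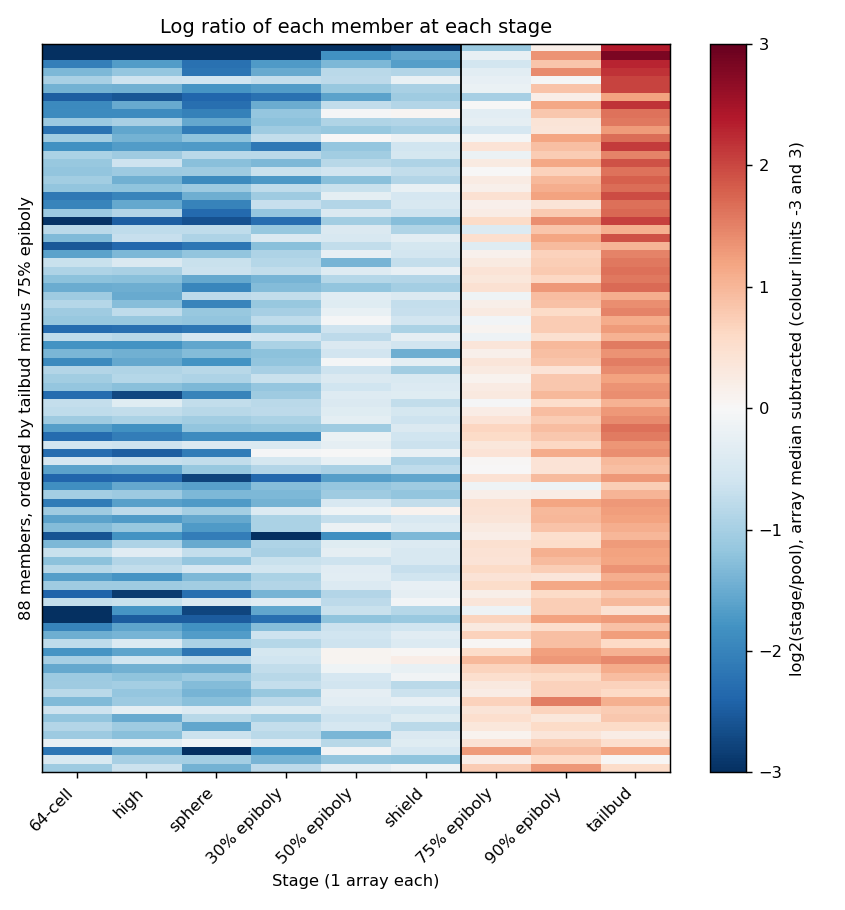
Log2 ratio of stage over pool, array median subtracted, for each of the 88 members (lines) at each stage (columns), ordered from the largest to the smallest difference between tailbud and 75% epiboly. The vertical line separates shield from 75% epiboly. The uppermost member is at -1.10 at 75% epiboly and at 2.37 at tailbud. The lowest is at 0.77 at 75% epiboly, 1.31 at 90% epiboly and 0.56 at tailbud.

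Split by step, the course was a staircase with its tallest step at 75% epiboly. The choice of members, off at shield and on at 75% epiboly, favours this place. The median step was 0.88 from shield to 75% epiboly, 0.57 from 75% to 90% epiboly and 0.51 from 90% epiboly to tailbud. Earlier steps had medians of 0.07 (64-cell to high), -0.10 (high to sphere), 0.29 (sphere to 30% epiboly), 0.48 (30% to 50% epiboly) and -0.03 (50% epiboly to shield). The largest of a member's 8 steps fell at shield to 75% epiboly for 49 members, at 75% to 90% epiboly for 14, and at 90% epiboly to tailbud for 9. Among all probes with a log ratio on all 9 arrays it fell at these steps for 2550, 1957 and 1808. For the other 16 members it fell earlier, 9 of them at sphere to 30% epiboly. In order from 64-cell to shield, the earlier steps held the largest step of 1, 0, 9, 4 and 2 members. Among all probes with a log ratio on all 9 arrays they held it for 1117, 1444, 3025, 1911 and 2143. From sphere to 30% epiboly 9 of the 88 rose 2-fold or more, beside 7.78% of all probes. From shield to 75% epiboly 86 of 88 went up, beside 8126 of 16102 probes. Only 27 members did so by 2-fold or more, beside 2.14% of all probes. This step is part of the contrast that chose the members, so nothing is read from that excess. From 75% to 90% epiboly 12 members went up 2-fold, beside 1.18% of all probes, and from there to tailbud 10 did, beside 1.44%.

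The size of that step depended on the processing. With normexp and loess the median step from shield to 75% epiboly was 0.56 in place of 0.88, 11 members reached 2-fold in place of 27, and the step was the largest for 35. It was still the tallest median step under that processing, ahead of 0.47 from 90% epiboly to tailbud. The same members were used, so their choice favours this step here too. Without any spot that the image software had marked with a flag, 24 of the 88 remained, and 2 of these 24 went up 2-fold or more at this step. A Cy5 flag stood on at least 1 array for 64 of the 88 members, beside 46% of all probes. The sources used here do not explain the flag codes, and the part of the flags in the result was not tested. By channel, the Cy5 intensity of the median member, relative to the array median, rose by 0.71 on the log2 scale from shield to 75% epiboly, and its Cy3 intensity changed by -0.14. At that step 20 members were 2-fold higher in Cy5, beside 2.79% of all probes. In Cy3 1 member was 2-fold higher, beside 1.18% of all probes. Over the 9 arrays the pool signal of a member had a median SD of 0.16, against 1.01 for its stage signal. The members were chosen by a change in Cy5, so the Cy5 rise and its wider spread are favoured by that choice. This contrast between the channels is given as a description.

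An upward drift was already present before 75% epiboly. The ratio was higher at shield than at 30% epiboly in 77 of 88 members, beside 54.6% of all probes, with a median difference of 0.47. It was 2-fold or more in 10 members, beside 2.6% of all probes. The mean of 30% epiboly to shield entered the size condition, which did not use the order of these 3 stages. Each of them also had its own off condition, and these were unequal. At 30% epiboly 8619 probes were on, against 6531 at shield, so a member could rank higher at shield and still be off. The excess over all probes may thus be set in part by the choice of members, which was not tested. The drift lay between 30% and 50% epiboly, where 76 members went up, beside 9010 of 16110 probes. Of the members 8 rose 2-fold, beside 2.75% of all probes. From 50% epiboly to shield 43 went up and 45 went down, none 2-fold, beside 1.05% of all probes 2-fold higher and 0.98% lower. All these values come from Cy5 signals at or under the blank level.

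After 75% epiboly most members went on rising, and none turned down by 2-fold. Tailbud exceeded 75% epiboly by 2-fold or more in 47 of 88, beside 3.16% of all probes, and beside 3.08% of the probes on at all 3 late stages. It did so by 4-fold or more in 8, beside 0.319% of all probes. No member was 2-fold lower at tailbud, beside 6.56% of all probes, and 3 had a negative difference. The difference ran from -0.21 to 3.47 with a median of 1.07. A steady order, with 75% epiboly below 90% epiboly below tailbud, was seen in 75 members, beside 18.4% of all probes and 22.6% of those on at all 3 late stages. The highest of the 9 ratios fell at tailbud in 78 members, at 90% epiboly in 9 and at 75% epiboly in 1. No share of all probes stands beside these 3 counts, so they describe the members alone. The late mean that chose the members contains the tailbud value, which favours probes high at tailbud, so the excess over all probes is in part set by the choice. Of the 222 probes that missed only the size condition, 10 were 2-fold higher at tailbud, with a median difference of 0.18. The steady order was seen in 72 of these 222, or 32.4%. Appearance at 75% epiboly thus names where these signals crossed the blank level. That stage had the highest ratio for 1 member, whose pool signal exceeded blanks on no array. The largest step fell elsewhere in 39.

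**Figure D3:**
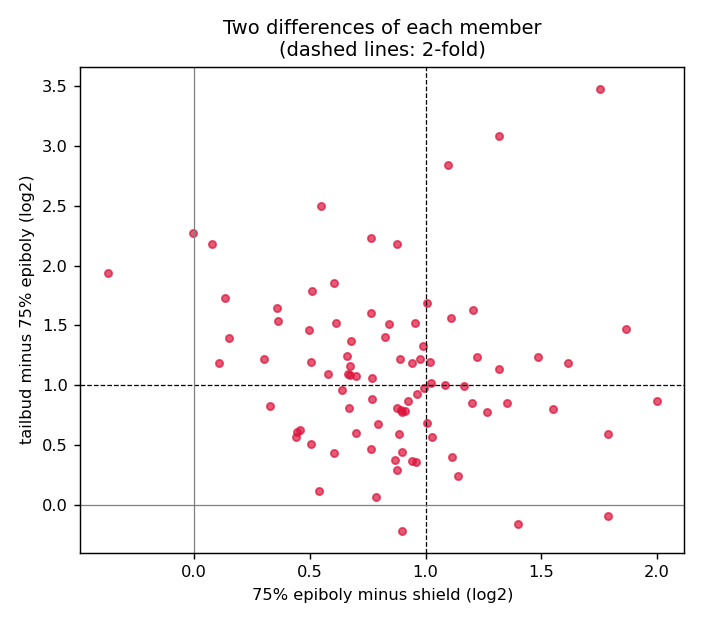
Log2 difference between tailbud and 75% epiboly (vertical axis) against the log2 difference between 75% epiboly and shield (horizontal axis), 1 point per member, with dashed lines at 2-fold. The points fill all 4 fields: 14 members are past 2-fold on both axes, 33 on the vertical alone, 13 on the horizontal alone and 28 on neither.

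Members thus differed among themselves in how the rise was divided. In 14 members both the step to 75% epiboly and the later difference reached 2-fold. Only the later difference did so in 33, only the step to 75% epiboly in 13, and neither in 28. Among the 27 members with a 2-fold step to 75% epiboly the later difference had a median of 1.00, and among the other 61 it was 1.09. Both differences contain the 75% epiboly array, so an error there moves them in opposite directions. The 47 members that were 2-fold higher at tailbud had median log ratios of 0.14, 0.82 and 1.58 from 75% epiboly to tailbud. For the other 41 it was 0.42, 0.74 and 1.05. Their pool signal was above blanks on the shield array in 44 of the 47 and in 29 of the 41.

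CGENXEB_456000396_0 had the largest rise, 3.71, and was the brightest member at tailbud. Its median Cy5 intensity was 330, 217 and 236 on the 64-cell, high and sphere arrays, and 397, 316 and 305 on those of 30% epiboly, 50% epiboly and shield. It then rose to 2300 (75% epiboly), 7220 (90% epiboly) and 27118 (tailbud). On the same arrays its Cy3 intensity lay between 3278 at shield and 8210 at 90% epiboly, above the blanks on all 9. These uncentred stage and pool intensities thus separated widely up to shield and crossed between 90% epiboly and tailbud. With each array median set to 0, the sign of the log ratio changed between 75% and 90% epiboly. The log ratio went from -4.72 at 64-cell through -3.64 at 30% epiboly and -2.86 at shield to -1.10, 0.17 and 2.37 at the 3 later stages. Its spot carried no flag in Cy5. After normalization between arrays its Cy5 level at tailbud was at least 29.4-fold higher than at shield. For such bounds the off side was set to the lowest normalized signal among probes that were on, or to the probe's own signal where that was higher. Dye bias can enter them, as no array with exchanged dyes was analysed here.

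The member with the next largest rise, CGENXEB_456008956_0 had a rise of 3.61. Its Cy5 intensity was 216, 176 and 163 on the first 3 arrays, and 252.5, 360 and 251 on the next 3. From 75% epiboly on it was 1572, 6303 and 13816. At 50% epiboly it stood at 0.94 of the blank level. Its log ratio, -4.66 at sphere, then took the values -3.51, -1.82 and -1.56 up to shield, followed by -0.25, 1.34 and 2.83. Its largest single step was 1.69, from 30% to 50% epiboly, between 2 signals under the blank level. With normexp and loess that step was 1.32, and the largest was 1.5, from 90% epiboly to tailbud. Tailbud was at least 21.9-fold higher than shield in normalized Cy5. A flag stood on 1 array.

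At the other end, no member with a pool signal on at least 5 arrays fell by 2-fold after 75% epiboly, and the 2 with the lowest difference peaked at 90% epiboly. CGENXEB_456003816_0 had Cy5 intensities of 510, 304, 271, 355, 356 and 306.5 from 64-cell to shield, then 1534, 2090 and 838 from 75% epiboly to tailbud. The log ratio of its shield array was -0.13, followed by 0.77, 1.31 and 0.56, a difference of -0.21 between tailbud and 75% epiboly. This signal was 2.46 times the blank level at 75% epiboly and 2.08 times at tailbud, and so was well above blanks throughout the late stages. Its spot carried a Cy5 flag on 1 array.

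CGENXEB_456002146_0 was a faint case. Its Cy5 intensity was 479 at 64-cell and then 228, 234, 231.5, 188 and 183 from high to shield. It was 625 at 75% epiboly, where the blank level was 624, and 707 at 90% epiboly and 438 at tailbud. From -1.21 at shield the log ratio went to 0.19, 0.59 and 0.04. Its normalized Cy5 signal at 75% epiboly did not exceed the bound taken for shield, so no fold is given. This probe lay as near to the detection limit at 75% epiboly as any of the 88, and it carried a Cy5 flag on 1 array.

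**Figure D4:**
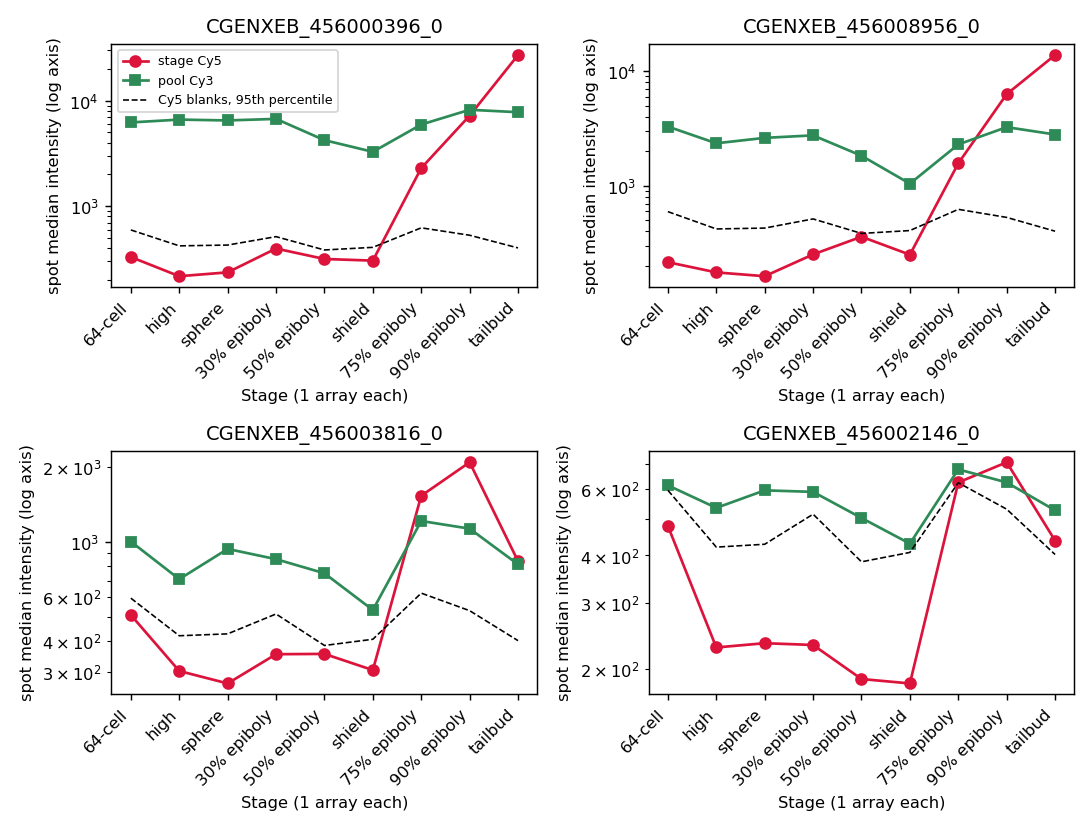
Median spot intensity (log axes) of 4 members at each stage, in stage RNA (circles) and pool RNA (squares), with the Cy5 blank level dashed. The upper 2 climb from under the blank level at shield to 27118 and 13816 at tailbud; the lower 2 peak at 90% epiboly, at 2090 and 707.

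The steepest members, picked by the size of their rise, are described here as a group and without a test. The rise sets the late mean against the mean of 30% epiboly to shield. Low ratios at those stages, high ones later and a large step to 75% epiboly are thus favoured by the pick. In 14 members the rise was at least 2 on the log2 scale, which is 4-fold. Their median log ratio was -1.93 at 30% epiboly and -1.07 by shield, then 0.22, 1.06 and 2.04. The step to 75% epiboly reached 2-fold in 11 of the 14, and so did the later difference in 11. The third largest rise was 2.89, with a log ratio of -1.29 at shield, 0.58 at 75% epiboly and 2.05 at tailbud. The eighth, with a rise of 2.42, was still at -0.55 at 75% epiboly and reached 2.29 at tailbud. The pool signal of 13 of these 14 exceeded blanks on all 9 arrays, beside 67.6% of all probes. Only 4 of the 14 were free of a Cy5 flag on every array, while 46% of all probes had a flag on at least 1. Of the 14, 5 were also among the 12 that remained when equal numbers of probes were called on at every stage.

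Normalized Cy5 levels gave smaller bounds for most members than for these few. The counts below were made for the members alone, so no share of all probes stands beside them. The choice of members, off at shield and on later, favours a rise here too. Tailbud was above the bound at shield by a median of at least 2.18-fold, by 2-fold or more in 51 of 88 and by 4-fold or more in 12, while 3 members gave no fold. From shield to 75% epiboly the median was at least 1.18-fold, 9 members reached 2-fold and 19 gave no fold. Between 75% epiboly and tailbud, where every member was on at both ends, tailbud was higher by a median of 1.86-fold, and 35 members reached 2-fold. In 7 members this ratio was under 1, with a lowest value of 0.517. The member with that lowest value rose by 1.39 in log ratio between the same stages, so the measures disagreed in direction for it. It carried a Cy5 flag on 4 arrays.

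Probe error can be judged from the IDs that were printed more than once. Over 125 such IDs, the SD between spots of 1 ID was 0.43 (pooled) or 0.22 (median) for the difference between 75% epiboly and shield. For the difference between tailbud and 75% epiboly it was 0.46 and 0.30 over 120 IDs, and for the rise it was 0.40 and 0.18. The spots of 1 ID share the array and the RNA, so this spread leaves out differences between embryos and hybridisations. The step to 75% epiboly exceeded 2 pooled SD in 47 members, and in the other 41 it lay within 2 pooled SD of 0. This step helped to choose the members, so these counts describe them and test nothing. All members were under the blank level at shield, where the spread may differ from that of the repeated IDs. The later difference exceeded 2 pooled SD in 51. Of the 88 members 87 had 1 spot. The member with 2 spots had a rise of 1.67 in 1 spot and 1.21 in the other, and a step to 75% epiboly of 1.11 and 0.42. Its later difference was 1.91 and 1.29. Both spots had the same direction in all 3 measures, but they fell on either side of 2-fold for the step to 75% epiboly. At shield their log ratios were -1.34 and -0.16. This member carried a Cy5 flag on 6 arrays, the most of any member. The 88 probes lay in 27 of the 32 print blocks of the array, at most 8 in a block.

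Moving the boundary of the detection rule gives 2 neighbouring sets, described here for comparison and without a test. There were 231 probes off up to sphere, on at all 6 stages from 30% epiboly, and 2-fold higher in the later mean. Another 65 were off up to 90% epiboly, on at tailbud, and 2-fold above the mean of shield to 90% epiboly. The 30% epiboly set had its largest median step, 2.14, from sphere to 30% epiboly. There 222 of 231 reached 2-fold, beside the same 7.78% of all probes. That step is favoured by the rule of the set, off at sphere and on at 30% epiboly. In the 88 no step had a median above 0.88. The 88 were chosen on another contrast, so this difference in shape is in part set by the rules. After 75% epiboly the 30% epiboly set had a median difference of 0.04 at tailbud, with 10 probes 2-fold higher and 10 lower. The tailbud set had a median step of 0.55 from shield to 75% epiboly. From 90% epiboly to tailbud its median step was 1.20, which its rule likewise favours. Its difference between tailbud and 75% epiboly had a median of 1.36, and 48 of the 65 were 2-fold higher, also favoured by its rule. Its probes were fainter, as 25 of 65 exceeded blanks in the pool on the shield array, against 73 of 88 and 231 of 231.

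**Figure D5:**
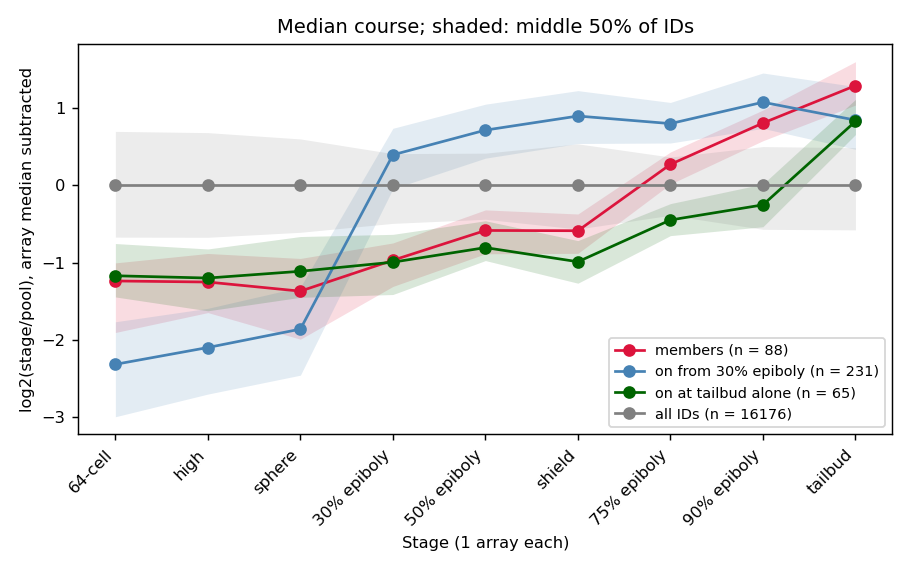
Median log2 ratio of stage over pool (array median subtracted) at each stage for the 88 members, the 231 probes on from 30% epiboly, the 65 on at tailbud alone and all 16176 probes; shading covers the middle 50% of each set. The 88 climb from -0.59 at shield to 1.29 at tailbud, the 231 move mainly between sphere and 30% epiboly, and the 65 mainly at tailbud.

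The linear ratio of a probe to the pool was averaged over the 9 stages, with each array median set to 0. For the members the median of this mean was 0.975, with quartiles of 0.897 and 1.05, and for all probes it was 1.14. Setting the array medians to 0 in part places such means near 1, so they do not check the ratios against the pool. Before that step the array medians ran from -0.96 at sphere to 0.02 at 64-cell. No pair of arrays had a correlation of log ratios over probes under -0.16. After normexp and loess the lowest was -0.45, between sphere and tailbud. The labels give Cy5 for the stage on all 9 arrays, and this direction was kept.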

How the data were processed

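The deposited scanner tables hold mean and median spot and background intensity per channel on a linear scale, made with Imagene and not normalized, per the file headers. Their flag column, a score of 0, 2 or 3, has no stated code, per the file headers. The authors' deposited value table holds log2 values; they equalled uncentred log2 of Cy5 over Cy3 within 0.001 for 98.4% to 99.1% of the probe IDs per array. The series text speaks of dye swaps, and no swapped array was analysed here. Antisense RNA was amplified linearly from total RNA (800 ng per sample), per the labels' protocols.

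Log ratios and detection were computed from the scanner tables as the report states, averaging spots of an ID (Python 3.11.15, pandas 2.3.3). Normexp (offset 50), loess and Aquantile were run in limma 3.58.1 under R 4.3.3. With 1 array per stage, the number of arrays limits the precision, and no test was made. A value called 2-fold is a difference of 1 on the log2 scale. The rule for IDs named 2 with the largest rise and 2 with the lowest difference between tailbud and 75% epiboly, among members with a pool signal above blanks on at least 5 arrays. The members and lists were chosen with earlier results of these data known. Lists of germ layer and cell type markers gave no result, as no ID could be named.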

Additional observations from a re-analysis of the deposited data

How the results depend on the processing

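The number of members, 88 by the rule, was 173 with the authors' value table as deposited, whose array medians run from -0.95 to 0.02, 310 with no size condition, 14 with a rise of at least 2 on the log2 scale, 28 without flagged spots and 0 with the local background plus 2 SD as the level. With signals divided by the array median and 1 level for all arrays, added after the data were seen, it was 35, with 29 of the 88 among them. Leaving out an array gave 75 to 164 members, with 139 without 50% epiboly and 164 without 75% epiboly. At the 99th percentile of blanks there were 105, of which 49 were shared. The median rise was 1.13 with normexp and loess, 1.43 with the value table centred, 1.89 as deposited, 1.52 with spot medians, 1.46 for the 71 members with a pool signal on all arrays, and 1.21 to 1.71 without 1 array. The median step to 75% epiboly was 0.56 with normexp and loess, 1.41 with the value table as deposited and 0.89 with spot medians. The count 2-fold higher at tailbud lay between 32 and 46 under the 4 other log ratios and was 8 at 4-fold; none was 2-fold lower under any. In the pool at shield 46 members passed the 99th percentile. No paired analysis was possible because each stage has 1 array and the labels carry no replicate numbers.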
